A study of Sus scrofa with 12 samples.

Results

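Peaks of N6-methyladenosine (m6A) that lie in transcripts made of a single exon were described in the back muscle of young pigs. They were all listed peaks whose annotation reads exon 1 of 1, and there were 206 of them among 13487 peaks, a share of 1.53%. They fell in 45 of the 2159 genes with any peak. The tissue was longissimus dorsi of pigs aged 5 days, of the lean Large White breed and of the Ningxiang breed, which is native to China and fattens readily, with no treatment named for either. Each breed had 3 replicates, and each replicate had an immunoprecipitated library and an input library behind 1 peak list. Since the labels number the replicates without saying that they were different pigs, the p-values speak of spread between samples that may in part be technical.

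m6A is written on messenger RNA during transcription, mostly within a short sequence context and most densely around stop codons and in long last exons. The protein complex left at splice junctions is known to keep the writing enzymes away from nearby sequence, which leaves long exons and transcripts without junctions more open to them. Genes with an uninterrupted coding region often encode signalling proteins, receptors, chaperones, histones and early response factors.

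The lists held markers of muscle. Of 10 skeletal muscle markers, 9 had a peak in all 6 lists (CKM, DES, MYH1, MYH2, MYH4, MYOG, RYR1, TNNT3 and TPM2), and ACTA1 had none. Markers of other cells were also listed. Peaks lay on 4 of 5 endothelial and fibroblast genes, 4 of 5 adipocyte genes and 2 of 5 blood and immune genes. Of these, in the same order, 4, 1 and 1 had a peak in all 6 lists. The part of these other cells in the single-exon peaks was not tested. In whole muscle, fewer cells of a type and less RNA per cell cannot be told apart. The lists give no sequencing depth, and a peak absent from one may have missed the authors' threshold rather than m6A being absent. The fold of a peak is the authors' ratio of immunoprecipitated over input signal, and the log10 p is theirs too. Both describe a peak in its own list, and a higher fold in 1 list than in another is not a measured difference in methylation.

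The annotation is of a transcript, and the gene is often larger than that transcript. The listed transcripts were 528 to 3810 bp long, with a median of 1284 bp, and 33 of the 45 lengths were multiples of 3. Set beside the RefSeq table of Sscrofa11.1, which is the assembly behind susScr11, all 45 transcripts were matched. For 22 genes the RefSeq locus had the same ends within 30 bp, and for 22 it was longer, in 13 of these more than 10 times as long. The longest locus was that of ZBTB38, 141435 bp for a listed transcript of 3585 bp. Relative to the listed transcript the longest was that of NTF3, 70038 bp for 774 bp. RSC1A1 was listed on chromosome 6 and stands on chromosome 1 in the table, so its identity is uncertain. The label of a single-exon transcript therefore held for each listed model, while nearly 50% of the genes have a wider locus in which other exons may lie. None of the 206 peaks ran past an end of its listed model, and 35 of the 13487 peaks did.

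All 206 peaks were 1 unbroken block, against 42.6% of the other peaks, which follows from the rule, since a model of 1 exon has no junction. They were 116 to 810 bp long, with a median of 239 bp, and a peak covered a median of 15.4% of its transcript. More than 1 peak in a list was found on 14 genes. ZBTB38, a zinc-finger protein that binds methylated DNA, had up to 5 in a list and 23 over the 6 lists. Over the 45 genes, transcript length and the number of peaks per list were weakly related (Spearman rho of 0.33, a description over genes that share libraries).

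Peaks were found in all 6 lists on 12 genes, ARF6, PRNP, KCNJ2, MGAT1, LOC595122, ZBTB38, MGAT2, CD93, MID1IP1, RAP2B, RSC1A1 and H1-2, ordered by the weakest of their best p-values over the lists. That is 26.7% of the 45 genes, beside 29.9% of the 1871 genes with any peak of the exon class. On 10 of the 12, some bases lay under a peak in every list, over stretches of 61 to 411 bp. CD93 and RSC1A1 had no such base. A single list was the only source for 8 genes, which is 17.8%, beside 21.4% of all genes with an exon-class peak.

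**Figure D1:**
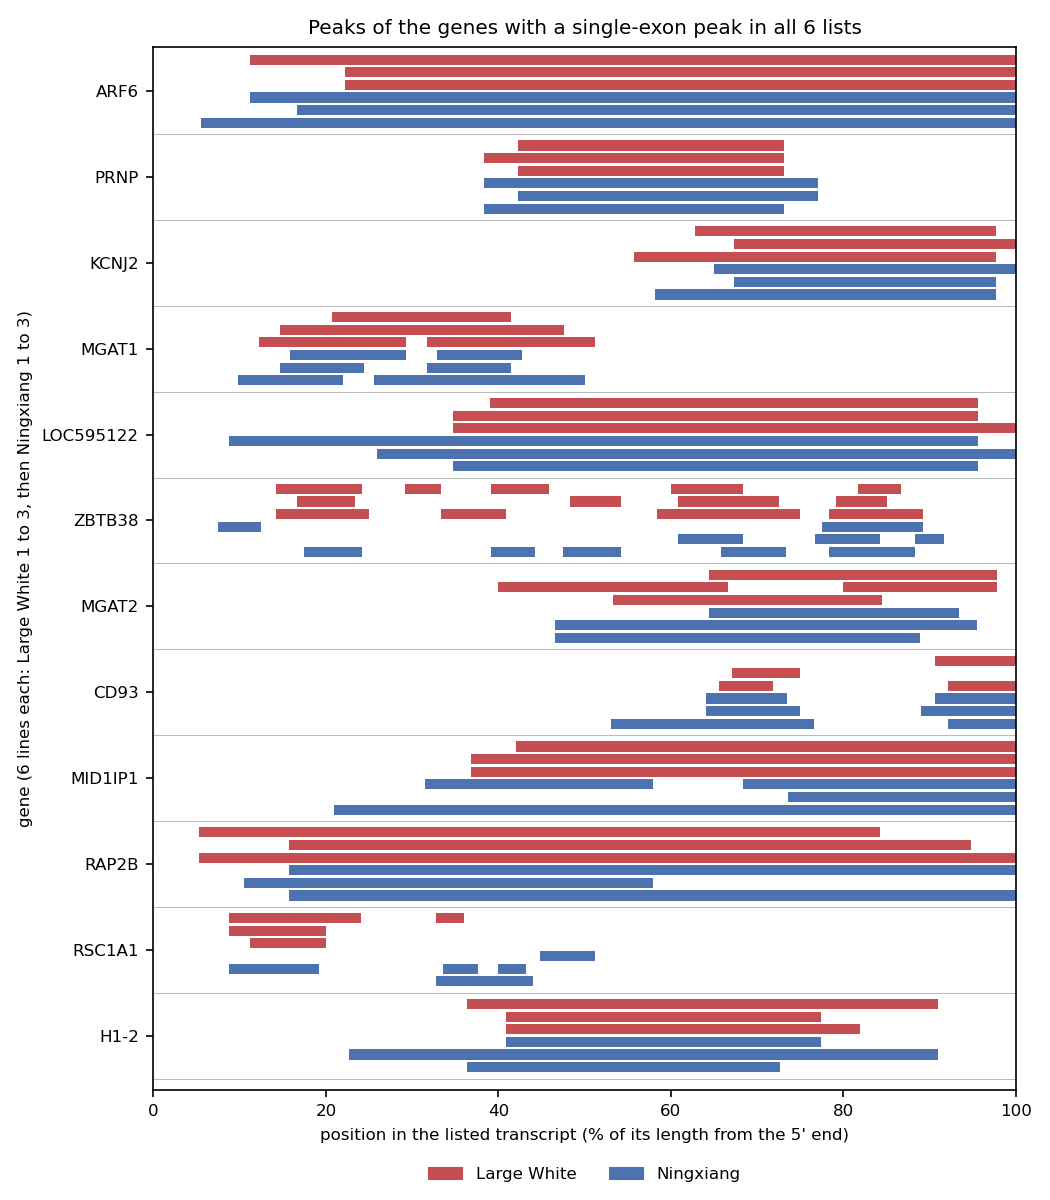
Each bar is a peak, drawn by its position in the listed transcript in percent of its length from the 5′ end, for the 12 genes with a single-exon peak in all 6 lists; each gene has 6 lines, Large White replicates 1 to 3 in red above Ningxiang replicates 1 to 3 in blue. Peaks of ARF6 and MID1IP1 run to the 3′ end of the transcript in all 6 lists, peaks of PRNP stay inside it, and ZBTB38 carries several peaks along its length.

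Small GTPases, molecular switches of membrane traffic and the cytoskeleton, made up the largest group by the lists used. Of 40 such genes with any peak, 5 had a single-exon peak, ARF6, RAP2B, RHOB and RHOG among them. ARF6 acts at the plasma membrane, in endocytosis and actin remodelling. Its best folds were 4.13, 3.48 and 3.64 in Large White replicates 1 to 3, and 3.11, 4.82 and 3.96 in Ningxiang replicates 1 to 3. The breeds overlapped, and ARF6 ranked first by p, with a log10 p of -48.8 or lower in every list. Its peaks shared 411 bp in all 6 lists, at chr1:179714154-179714564 (susScr11) on the plus strand, bases 118 to 528 of a transcript of 528 bp.

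RAP2B, a relative of RAS, was the single gene of the 12 whose best folds did not overlap between the breeds. They were 4.36, 2.55 and 2.81 in Large White, and 10.4, 4.7 and 9.22 in Ningxiang, with means of 3.24 ± 0.979 and 8.11 ± 3.01 (SD, n = 3 each). Its log10 p was weakest in Large White replicate 2, at -6.56, and strongest in Ningxiang replicate 1, at -21.4. Of the 560 genes with an exon-class peak in all 6 lists, 13.8% had best folds that did not overlap between the breeds, 8.39% with higher ones in Large White and 5.36% with higher ones in Ningxiang. The count of 1 in 12 is near that background. RHOB, which acts in endosome traffic, had a peak in Large White replicate 3, with a fold of 1.65, and in all 3 Ningxiang replicates, with folds of 1.71, 1.77 and 2.88; its log10 p was -38.3 or lower in each of these 4 lists. RHOG, a GTPase of the same family as RHOB, had a peak in Ningxiang replicate 2 alone, with a fold of 1.74.

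Among ion channels and connexins, KCNJ2 had a single-exon peak in 6 lists, GJC1 in 5 and KCNA5 in 2. KCNJ2, the inward rectifier that holds the resting potential of muscle fibres, had the highest minimum fold of the 12 genes. Its best folds were 4.61, 4.17 and 4.15 in Large White, and 7.51, 3.93 and 5.75 in Ningxiang, so the breeds overlapped. All 6 lists covered 389 bp at chr12:10355562-10355950 on the minus strand, bases 866 to 1254 of a model of 1284 bp, close to its 3′ end. KCNA5, a voltage-gated potassium channel, had single-exon peaks in Large White replicate 3 and Ningxiang replicate 2, with folds of 3.13 and 1.96. Peaks of its transcript classed as 3′ untranslated were listed in Large White replicates 1 and 3 and Ningxiang replicates 1 and 2. GJC1, a connexin that forms channels between cells, had peaks in 5 lists, with best folds of 3.8, 13.8 and 3.39 in Large White, and 3.99 and 2.81 in Ningxiang replicates 1 and 3. The fold of 13.8 belonged to a peak with a log10 p of -3.33. No base of GJC1 lay under a peak in all 5 lists.

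Enzymes of glycosylation were represented by MGAT1, MGAT2 and B3GALNT1. MGAT1 and MGAT2 are the Golgi enzymes that start the hybrid and complex branches of N-glycans, while B3GALNT1 builds a glycolipid. MGAT1 had nearly equal best folds in all lists, 2.22, 2.32 and 2.22 in Large White, and 2.14, 2.56 and 2.21 in Ningxiang. Its peaks lay toward the 5′ end, with 211 bp common to all 6 lists at chr2:57918758-57918968 on the plus strand, bases 810 to 1020 of 2459. MGAT2 had 3.17, 4.44 and 4.17 in Large White, and 2.96, 3.29 and 3.29 in Ningxiang. MGAT2 peaks lie where RPL36AL, a ribosomal protein gene, is also listed. B3GALNT1 had 1 single-exon peak, in Large White replicate 1, with the highest fold of the set, 29.9, and a log10 p of -7.95. A peak classed as 3′ untranslated lay over the same bases in Ningxiang replicate 3, with a fold of 2.94.

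PRNP, the prion protein, and CD93, a receptor of endothelial cells, had low folds and strong p-values. PRNP had best folds of 2.35, 2.57 and 2.16 in Large White, and 2.48, 2.2 and 2.49 in Ningxiang, with means of 2.36 ± 0.205 and 2.39 ± 0.165 (SD, n = 3 each). The spread between lists was small, and the same 239 bp lay under a peak in every list, at chr17:13702980-13703218 on the plus strand, bases 328 to 566 of 774. CD93 had 2.38, 1.78 and 1.87 in Large White, and 2.13, 2.72 and 2.84 in Ningxiang. A pair of separate sites was seen on CD93, at the 3′ end of the model in 5 lists, all but Large White replicate 2, and farther upstream in all lists but Large White replicate 1.

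Histone and nuclear genes followed. H1-2, a linker histone, had best folds of 4.3, 2.62 and 3.72 in Large White, and 2.21, 3.45 and 2.71 in Ningxiang. LOC595122, which the files do not describe further, had 3.07, 2.64 and 3.56 in Large White, and 3.15, 2.76 and 2.73 in Ningxiang, with 377 bp common to all lists. Both overlapped between the breeds. Histone genes have near-identical copies, so the assignment of H1-2 is uncertain. ZBTB38 had best folds of 4.24, 10.1 and 3.84 in Large White, and 15.2, 6.33 and 5.51 in Ningxiang. The 15.2 came from a peak with a log10 p of -3.99, while the gene's strongest peak in that list had -14.4. Across its peaks, 91 bp near the 3′ end, at chr13:82191675-82191765, were covered in all 6 lists. CEBPB, a transcription factor of fat cell formation and inflammation, had peaks in Large White replicates 1 and 3, with folds of 2.8 and 2.02, and in Ningxiang replicate 1, with 4.22. THAP11, a regulator of transcription, had peaks in Large White replicate 3 and Ningxiang replicate 3, with folds of 1.9 and 3.28 and no base in common.

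Genes of lipid and selenium metabolism, and others of mixed or uncertain function, also carried such peaks. MID1IP1, which promotes fatty acid synthesis through acetyl-CoA carboxylase, had best folds of 2.67, 2.78 and 2.16 in Large White, and 2.01, 2.61 and 6.95 in Ningxiang. The value of 6.95 in Ningxiang replicate 3 stood apart, and the Ningxiang mean of 3.86 ± 2.7 (SD, n = 3) includes it. In all 6 lists a MID1IP1 peak covered the last 145 bp of the model, at chrX:34764951-34765095. SEPHS2, which makes the selenium donor for selenoproteins, had peaks in 5 lists with best folds of 1.94 to 8.92, the highest in Ningxiang replicate 3. RSC1A1 had 2.68, 4.19 and 2.45 in Large White, and 2.33, 3.14 and 2.71 in Ningxiang. TBCC, a factor of tubulin folding, had peaks in 4 lists with folds of 1.79 to 3.02. UTP3, a protein of ribosome assembly, had peaks in all 3 Large White lists, with best folds of 3.15, 3.47 and 2.41, and in Ningxiang replicate 2, with 2.31. NDN, the imprinted growth suppressor necdin, had a peak in Large White replicate 3, with a fold of 2.65, and in all 3 Ningxiang lists, with 2.29, 2.5 and 2.63.

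Receptors were listed less regularly. Of 21 G protein-coupled receptors with any peak, 4 had a single-exon peak, FZD2, ADRA2B and S1PR5 among them. FZD2, a receptor of Wnt signals, had peaks in Ningxiang replicates 1 and 3, with folds of 2.07 and 2.83. ADRA2B, an alpha-2 adrenergic receptor, had folds of 1.74 in Large White replicate 3 and 15.7 in Ningxiang replicate 2. S1PR5, a receptor of sphingosine phosphate, and RXFP4, a relaxin family receptor outside the receptor list used, had 1 peak each, in Ningxiang replicate 1 and Large White replicate 2, with folds of 19.2 and 17.4. ACKR2, a scavenger receptor of chemokines that the list also missed, had peaks in Large White replicate 3, with a fold of 3.54, and in Ningxiang replicates 2 and 3, with best folds of 9.94 and 2.53.

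Several further genes had single-exon peaks in 1 to 4 lists, with untranslated-region peaks not counted here. TICAM2, an adaptor of Toll-like receptor signals, had folds of 2.71 and 5.27 in Large White replicates 1 and 2, and 11.6 and 18.2 in Ningxiang replicates 2 and 3. TLR7, a receptor of single-stranded RNA, had 1 peak, with a fold of 10.8 and a log10 p of -2.68 in Large White replicate 3. MPEG1, a pore-forming protein of macrophages, had peaks in 3 lists with folds of 2.71 to 22.2 and no base in common. SOCS3, an inhibitor of cytokine signals, had peaks in Large White replicates 1 and 3, with folds of 2.82 and 2.71. SOD3, an extracellular superoxide dismutase, had 4.2 and 11.8 in Ningxiang replicates 1 and 3. NTF3, a neurotrophin, had 18.3 and 6.27 in Large White replicates 2 and 3, at sites that did not overlap. RNASE1, a secreted ribonuclease, had peaks in 3 lists with folds of 2.14 to 4.74. TLNRD1, an actin-bundling protein, had 3 lists with 3.32 to 5.3. SLC35A4, of a family of nucleotide-sugar carriers, had 1.79 in Large White replicate 3 and 1.99 in Ningxiang replicate 3. Peaks classed as 5′ untranslated overlapped these in Large White replicates 1 and 2 and Ningxiang replicate 1, with folds of 3.67, 3.34 and 2.39. The early response gene IER5 and NAA80, an enzyme that modifies actin, had 1 single-exon peak each, in Ningxiang replicate 3, with folds of 11.2 and 2.14. C7H6orf47 had 1, in Large White replicate 2, with a fold of 11.9. The NAA80 peak lies where HYAL1 and HYAL3 are also listed, and C7H6orf47, HSP70.2 and RXFP4 likewise share their place with another listed gene. The annotation assigned no single-exon peak to the SOX, FOX, POU, HOX and bHLH factors, cytokines, phosphatases, ribosomal proteins or small RNAs. Of these, in that order, 17, 16, 22, 12 and 6 had a peak of some kind. Over all 2159 genes with any peak, 45 had a single-exon peak. In groups this small, a lack of such peaks cannot be set apart from that share. The MGAT2 peaks that overlap RPL36AL count under MGAT2.

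**Figure D2:**
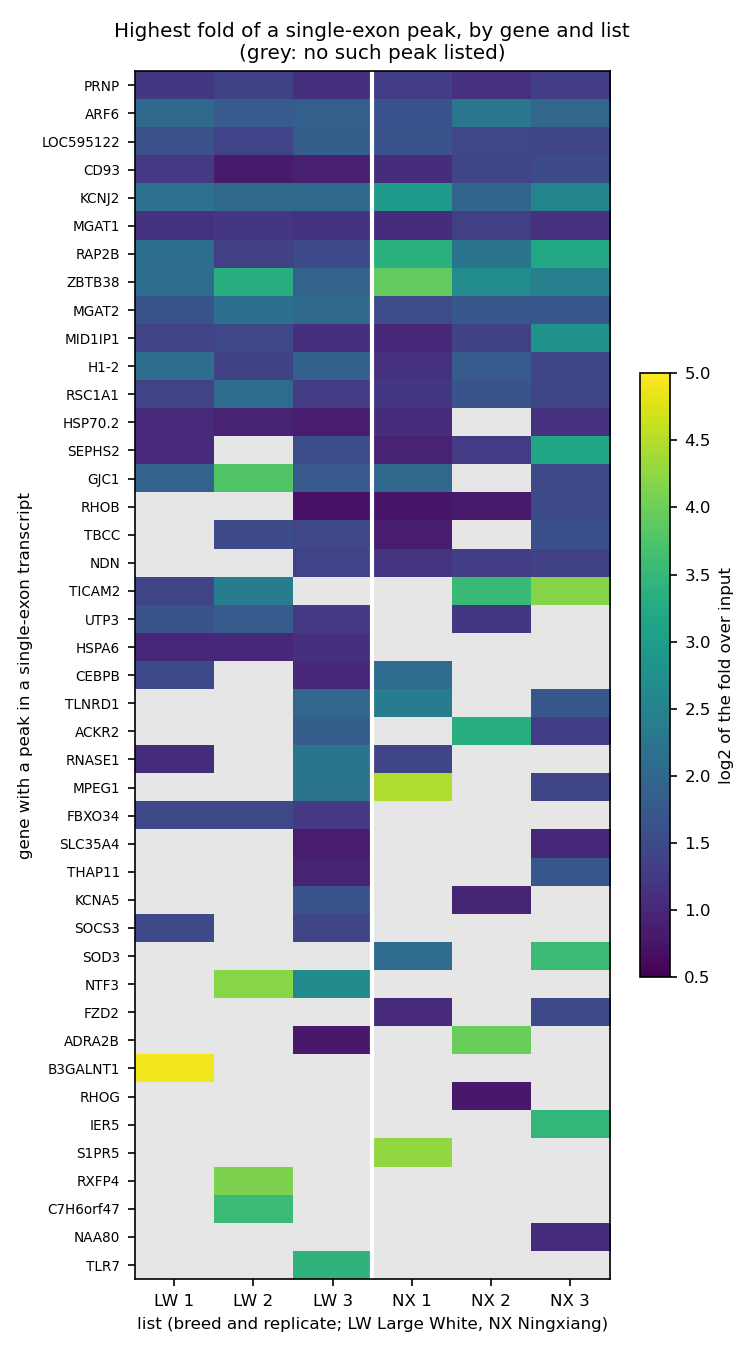
Colour gives the log2 of the highest fold of a single-exon peak, for each of 43 genes (rows) in each of 6 lists (columns), Large White at the left of the white line and Ningxiang at the right; grey marks a gene with no such peak in a list. The 12 genes at the top have a peak in all 6 lists, and the brightest cells, B3GALNT1 at 29.9-fold among them, lie mostly on genes seen in few lists.

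The position of a peak in its model depends on which peaks the exon class leaves out, so 2 kinds of model were described apart. A model is called here of coding length where its length was a multiple of 3 and none of its peaks was put in an untranslated region, a choice made after the positions were seen, and one that does not show that the model holds the coding region alone. This held for 27 genes with 136 peaks. In these, 7, 20, 32, 41 and 36 peaks had their midpoint in the first to the last of 5 equal stretches. The share in the 3′-most 50% was 71.4%, 76.2% and 76.7% in Large White, and 65%, 89.5% and 64% in Ningxiang. It was above 50% in 6 of 6 lists, with a mean of 73.8% ± 9.37 (SD, n = 6), and is given without a test because of how these models were chosen. The lists share many of their genes, so they do not sample genes independently. In the other 18 models the share was 36.4%, 50% and 50% in Large White, and 18.2%, 25% and 16.7% in Ningxiang, over 10 to 14 peaks a list. By exon-class peaks alone the breeds did not overlap there, with means of 45.5% ± 7.87 and 19.9% ± 4.44 (SD, n = 3 each). In models of coding length the means were 74.8% ± 2.9 and 72.8% ± 14.4 (SD, n = 3 each). No test is given for either. The 2 kinds of model are not compared, since 3′ untranslated peaks are missing from the other models by the rule. With untranslated-region peaks added, the share over all 45 models was 68.2%, 70.7% and 66.7% in Large White. In Ningxiang it was 55%, 71.8% and 56.8%, so the breeds overlapped. For the other 18 models alone, the share with those peaks was not counted. By gene, the median midpoint lay in the 3′-most 50% for 18 of the 27, for 7 of the other 18 and so for 25 of all 45.

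Over all 206 peaks the share was lower, and the rule that chose them bears on it. It was 65.1% ± 4.96 in Large White and 53.9% ± 9.24 in Ningxiang (SD, n = 3 each), and the mean over lists exceeded 50% by 9.48 percentage points, with 4 of 6 lists above it (exact two-sided sign-flip test over lists, p = 0.125, n = 6, adjusted p = 0.208, smallest possible p = 0.0312). Another 56 peaks of the same transcripts, on 14 genes, were classed as untranslated, 50 of them 3′ and 6 of them 5′, and so were not among the 206. Of the 3′ ones 47 had their midpoint in the 3′-most 50%, including all 10 on the minus strand. With them added, the share was 68.5% ± 2.05 in Large White and 61.2% ± 9.22 in Ningxiang (SD, n = 3 each), above 50% in 6 of 6 lists, and the excess was 14.9 percentage points (exact sign-flip p = 0.0312, n = 6, adjusted p = 0.0417). Peaks of IER5, TLNRD1, RNASE1 and TBCC then reached all 6 lists, which brought the number of such genes to 16.

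Some peaks stopped at the end of the model. In all, 35 peaks on 10 genes reached the 3′ end and 5 peaks on 3 genes reached the 5′ end. All lay in models of coding length, which the rule bears on, since a peak at the end of a model with an untranslated region is classed there; 7 of the 56 untranslated-region peaks reached an end. In the 3 Large White lists 5, 4 and 9 peaks reached the 3′ end and 0, 1 and 0 the 5′ end. In the 3 Ningxiang lists the counts were 6, 5 and 6 for the 3′ end and 2, 0 and 2 for the 5′ end, so the 3′ end had more in every list. ARF6 and MID1IP1 reached it in 6 of 6 lists and CD93 in 5 of 6. NDN peaks reached both ends, the 3′ end in 3 lists. RefSeq places the loci of ARF6, MID1IP1 and CD93 beyond these ends, so how far the enrichment goes on cannot be read from these lists.

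**Figure D3:**
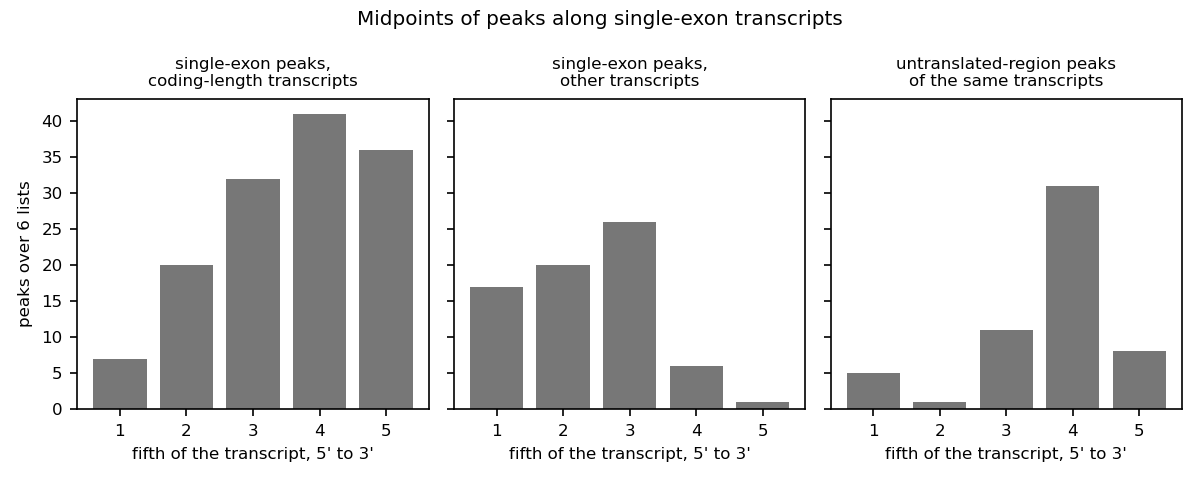
Bars count peaks over the 6 lists by the fifth of the listed transcript, from 5′ to 3′, that holds their midpoint: single-exon peaks in the 27 models of coding length, single-exon peaks in the other 18 models, and the 56 peaks of the same transcripts classed as untranslated. Coding-length models have 7 peaks in the first stretch and 36 in the last, while the other models have 17 and 1, with their untranslated-region peaks left out by the rule and counted apart.

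Over all 206 peaks, none of 5 comparisons between the breeds passed its test. Large White lists held 32, 31 and 44 single-exon peaks, and Ningxiang lists 31, 31 and 37. The means were 35.7 ± 7.23 and 33 ± 3.46 (SD, n = 3 each; exact permutation test, two-sided p = 0.7, adjusted p = 0.9). As a share of each list they were 1.5% ± 0.211 and 1.55% ± 0.101 (exact permutation p = 0.7, n = 3 each, adjusted p = 0.9). The genes concerned numbered 27.7 ± 6.43 in Large White and 25.7 ± 3.06 in Ningxiang (SD, n = 3 each; exact permutation p = 0.9, adjusted p = 0.9). Median length was 240 ± 7.7 bp and 229 ± 45.6 bp (SD, n = 3 each; exact permutation p = 0.8, adjusted p = 0.9), and the 3′ share given above had an exact permutation p of 0.2 (n = 3 each, adjusted p = 0.9). The groups overlapped on all 5 measures. With 3 lists against 3 the smallest p is 0.1, so none could pass the threshold of 0.05. Single lists decided some signs. Without Large White replicate 3 the difference, Large White minus Ningxiang, was -1.5 in peak number and -1.67 in gene number, against 2.67 and 2 with all lists. Without Large White replicate 1 the difference in share was 0.016 percentage points, against -0.0573, and without Ningxiang replicate 2 that in length was -13.5 bp, against 11.2 bp.

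Single-exon peaks present in every list of one breed and absent from every list of the other (3 of 3 against 0 of 3) were found on 2 genes, both in Large White. They are HSPA6, a chaperone of the HSP70 family, and FBXO34, a subunit of ubiquitin ligases. Among the 1871 genes with an exon-class peak, 2.03% met this rule in either direction, 1.39% in Large White and 0.641% in Ningxiang, and with 45 genes a count of 2 is too small to set apart from that background. For a single gene, 3 of 3 against 0 of 3 cannot go below a p of 0.1 in Fisher's exact test.

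The HSPA6 peaks in Large White replicates 1, 2 and 3 had folds of 2, 1.99 and 2.16, a mean of 2.05 ± 0.0954 (SD, n = 3), with log10 p of -693, -1290 and -75.7. They shared 390 bp at chr4:88971551-88971940, on the minus strand, in a transcript whose ends RefSeq gives alike. HSP70.2, another member of the family, had folds of 2.04, 1.93 and 1.81 in Large White, and 2.09 and 2.2 in Ningxiang replicates 1 and 3. Its log10 p was -3070, -3350 and -559 in Large White, and -35.4 and -44.4 in Ningxiang. Its folds were slightly higher in the 2 Ningxiang lists and its p lower in the 3 Large White lists. No share over all genes was counted for such a split, and folds of different lists are not a measured difference. Read counts, which bear on p, were not analysed here. The HSP70 family includes genes of nearly the same sequence, among which reads can be divided, so the assignment of both is uncertain.

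The FBXO34 peaks in Large White had best folds of 2.75, 2.75 and 2.37 and were weak, with log10 p of -4.36, -4.98 and -3.89. No base was covered in all 3 lists. Peaks classed in the 3′ untranslated region of the same transcript were listed in all 3 Large White replicates and in Ningxiang replicates 2 and 3. With those counted, FBXO34 no longer met the rule and HSPA6 alone remained. By peaks of any class, 2.08% of the 2159 genes met it, 1.34% in Large White and 0.741% in Ningxiang. NDN and RHOB stood near the opposite pattern, with peaks in all 3 Ningxiang lists and in Large White replicate 3 alone. Without that replicate both met the looser rule that 3 lists against 2 allow, in favour of Ningxiang, and the count became 4. Without Large White replicate 1 or 2 it was 3, with NTF3 or SOCS3 added in Large White. Without Ningxiang replicate 2 it became 5, with UTP3 in Large White, and FZD2 and SOD3 in Ningxiang, beside HSPA6 and FBXO34. No share over all genes was counted for this looser rule, so these counts cannot be set beside a background.

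High folds were mostly weak peaks. Folds of 10 or more were listed for 16 single-exon peaks on 14 genes, 7.77% of the set, beside 2.6% of the other peaks, a comparison without a test. Their median log10 p was -4.75, against -10.2 for the single-exon peaks below that fold. RAP2B in Ningxiang replicate 1 was the strongest of the 16, at -21.4, and TLR7 the weakest, at -2.68. At the other end, the peaks of HSPA6 and HSP70.2 joined folds near 2 with the lowest p-values of the set.

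**Figure D4:**
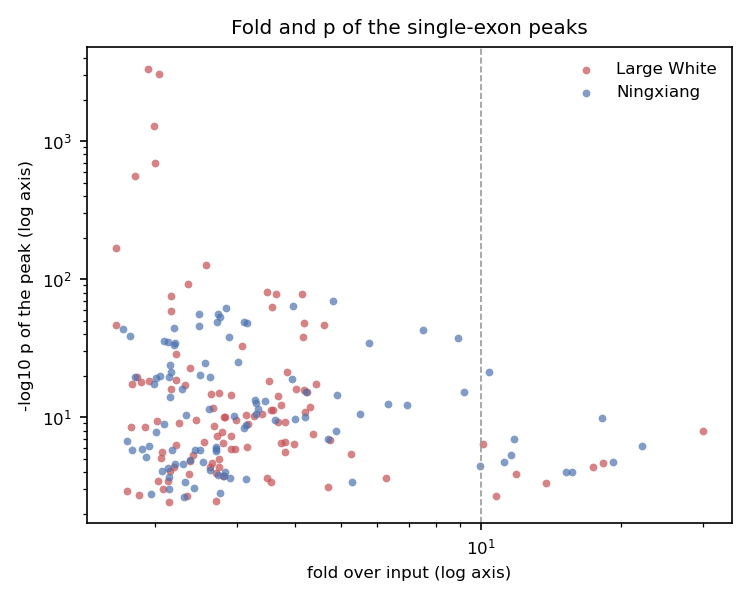
Each point is 1 of the 206 single-exon peaks, Large White in red and Ningxiang in blue, by fold over input and by -log10 p, both on log axes; the dashed line marks a fold of 10. The 16 peaks at or right of the line have a median log10 p of -4.75, and the highest points, HSP70.2 and HSPA6 in Large White, sit near a fold of 2.

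Within their lists, no difference of single-exon from other peaks passed the test. Their median fold was 2.79 ± 0.378, against 2.52 ± 0.0656 for the other peaks (SD, n = 6 lists), higher in 5 of 6 lists by a mean of 0.263 (exact sign-flip p = 0.0625, adjusted p = 0.208). Their median -log10 p was 9.49 ± 1.64, against 10 ± 0.564 (exact sign-flip p = 0.375, n = 6, adjusted p = 0.375). Their median length was 235 ± 29.9 bp, against 210 ± 0.632 bp of exonic sequence (exact sign-flip p = 0.156, n = 6, adjusted p = 0.208), longer in 5 of 6 lists. With the untranslated-region peaks of the same transcripts added, the fold and length differences were 0.308 and 36.6 bp and passed the threshold (exact sign-flip p = 0.0312 for each, n = 6, adjusted p = 0.0417).

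The most similar peaks were those of 1 block in the last exon of a multi-exon transcript, 2219 over the 6 lists. Against these, single-exon peaks had a median fold of 2.79 ± 0.378 and 2.72 ± 0.0816 (SD, n = 6; exact sign-flip p = 0.781), and a median length of 235 ± 29.9 bp and 209 ± 0.801 bp (SD, n = 6; exact sign-flip p = 0.0938). The sign of the difference in -log10 p turned, to 1.26 higher in single-exon peaks (exact sign-flip p = 0.125, n = 6). Recurrence was described without a test. A single-exon peak was overlapped by a peak in all 5 other lists in 34.4%, 35.5% and 27.3% of cases in Large White, and 41.9%, 35.5% and 29.7% in Ningxiang. For the other peaks of those lists the shares were 35.9%, 38.2% and 33.2% in Large White, and 41.5%, 40.4% and 38.2% in Ningxiang.

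**Figure D5:**
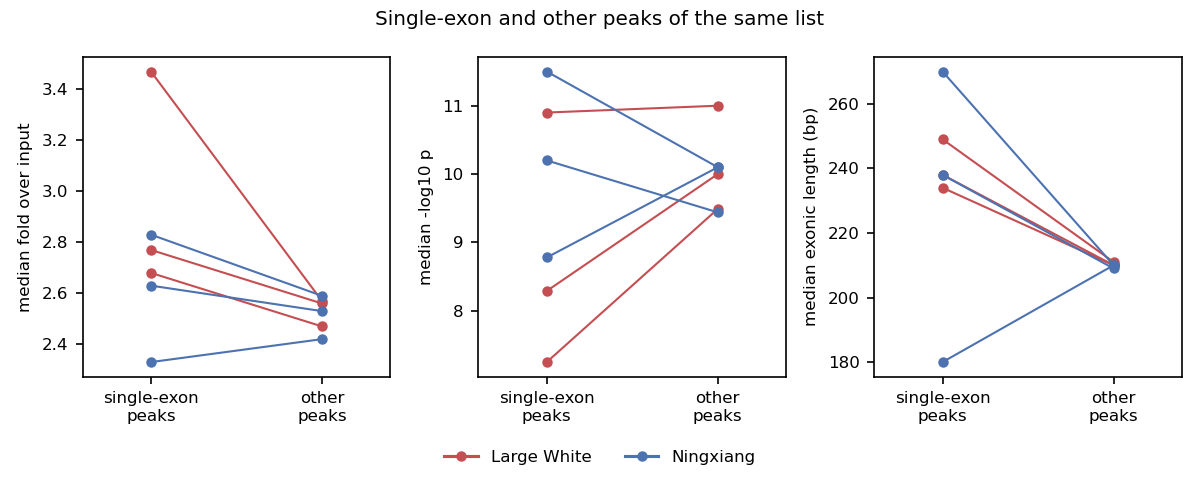
Each line joins the median of the single-exon peaks (left) to that of the other peaks (right) in 1 list, Large White in red and Ningxiang in blue, for fold over input, -log10 p and exonic length in bp. The medians of the single-exon peaks spread widely, from 2.33 to 3.47 in fold and 180 to 270 bp in length, around tightly grouped medians of the other peaks.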

How the data were processed

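Per the labels' protocols, mRNA was fragmented, m6A fragments were enriched with an antibody, and part of the fragments was kept as input. Coordinates are on susScr11, and HOMER, ChIPseeker 1.30.2 and FastQC 0.11.9 were among the tools, per the submitters' processing notes. Which aligner and which peak caller were run is not given in those sources. The 6 deposited lists, 1 per replicate, hold for each peak a p-value, its log10 (treated here as a score, with the adjusted form) and a fold ratio, all the authors' values per the file headers. Starts were raised by 1, since deposited starts count from 0. Exonic length is the sum of the deposited blocks. Positions run from the 5′ end by strand.

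Breeds were compared by exact permutation tests over 20 splits (5 comparisons, Benjamini-Hochberg adjusted), and single-exon with other peaks by exact sign-flip tests over 6 lists (4 comparisons, adjusted). The threshold was 0.05 on adjusted p. Sets of genes were described by counts. The planned rule named genes listed in 1 breed alone, those in all 6 lists with the strongest p-values or folds, and up to 4 per gene list; 43 of the 45 genes are named instead, and the others are not reported here but stay in all counts. The planned motif count was not made, since no genome was used here, and a planned comparison of median fold between breeds was dropped because a fold describes a peak within its list. Members and gene lists were chosen with earlier results of these data known. The functions were tested on simulated data. Alternatives were the stronger 50% of each list, the strongest 2034 peaks of each, peaks of 1 block, added untranslated-region peaks, 1 peak per gene, other comparison peaks, a replicate block and leaving out each replicate. The setting of peaks of 1 block kept all 206 peaks and so repeated the main values. Python 3.11.15, pandas 2.3.3, NumPy 2.4.6, SciPy 1.17.1 and Matplotlib 3.10.9 were used.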

Additional observations from a re-analysis of the deposited data

How the results depend on the processing

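No comparison between breeds passed the threshold under any alternative, and none could. The smallest p is 0.1 with 3 lists against 3 and 0.25 over 3 pairs. The small breed difference in peak number (2.67, Large White minus Ningxiang) became -2 with the stronger 50% of each list and -1 with the strongest 2034 peaks of each, and that in gene number (2) became -2 and -0.667. The difference in share became 0.0146 percentage points with untranslated-region peaks added and 0.00162 with only genes of the same RefSeq span. The difference in median length became -3.17 bp with untranslated-region peaks added and -4.83 bp without HSPA6, HSP70.2, H1-2, LOC595122, RSC1A1 and NAA80. Leaving out 1 replicate at a time gave -1.5 to 5 peaks, -1.67 to 4.33 genes, -0.178 to 0.016 percentage points and -13.5 to 31.5 bp. The difference of single-exon minus other peaks in median -log10 p (-0.534) became 0.925 with the stronger 50%, 0.803 against other peaks of 1 block and 1.26 against those of the last exon. Fold, length and the 3′ excess passed the threshold only with untranslated-region peaks added, at 0.308, 36.6 bp and 14.9 percentage points; the cause was not tested. Genes in all 6 lists numbered 5 with the stronger 50% and 4 with the same RefSeq span, against 12. Breed-only genes (2) became 1 with untranslated-region peaks added, with the same RefSeq span and without the 6 uncertain genes. The count was also 1 for merged regions sharing 1 bp. Leaving out a replicate gave 2 to 5, under a looser rule whose share over all genes was not counted. With 5 lists the sign-flip test cannot go below 0.0625. The settings of RefSeq span, uncertain genes and coding length were chosen after seeing the data. With replicate number as a block, the difference in peak number stayed 2.67 (exact sign-flip p = 0.5 over 3 pairs) and no call changed. Same-numbered lists had correlations of 0.0222, 0.0133 and -0.0359, beside -0.0552 to 0.0432 for lists of other numbers. So few values cannot decide whether the numbers mark a shared batch or a pairing. Unknown depth limits what a missing peak shows.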
